A study of Homo sapiens with 11 samples.

Results

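The drug and organic ion transporters examined in HK2 cells were 10 genes chosen by name from 19645 protein-coding genes with RNA-seq records. They were SLC22A2, SLC22A4, SLC22A5, SLC22A6, SLC22A8, SLC47A1, SLCO4C1, ABCB1, ABCC4 and ABCG2. HK2 is an immortalised human cell line from the proximal tubule, cultured here under 1 condition with 10% fetal bovine serum and 0.05% DMSO, which all samples shared. RNA was measured in 2 RNA-seq libraries, and H3K4me3, H3K27ac and H3K27me3 were profiled by ChIP-seq on formaldehyde-fixed cells in 2 replicates of each mark. No source used here says that replicates came from separate cultures, so the spread between them may be technical. With a single condition, no group of samples could be tested against another, and every value below is a description of these libraries.

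The proximal tubule secretes drugs and waste products from blood into urine. Uptake carriers on the blood side bring substrates into the cell, among them SLC22A6 and SLC22A8 of the SLC22 family of organic cation and anion transporters. Efflux carriers such as the MATE exchanger SLC47A1 and the ATP-driven pumps of the ABC family move them on into the urine. Not every SLC22 carrier lies on the blood side, and the membrane side of the members was not measured here. Of the marks, H3K4me3 lies at promoters, H3K27ac at active promoters and enhancers, and H3K27me3 at genes silenced by Polycomb.

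The label of the cells was checked against marker genes. Levels are in FPKM, fragments corrected for transcript length and library size. Of 5 keratin and junction genes of simple epithelium, the cadherin CDH1 was at 0.210 and 0.283. The other 4, with KRT8 at 179 and 184, stood at 1 or above in both libraries. Of 10 proximal tubule markers, 2 passed that level, GGT1 and SLC5A2, while LRP2 and SLC5A1 were among those listed at 0 in both libraries, and the 10 summed to 66.5 and 60.9, nearly all from GGT1 at 64.1 and 58.1. The 5 markers of loop, distal and collecting duct summed to 0.044 and 0.116, with UMOD and AQP2 listed at 0. The 4 fibroblast and mesenchyme markers summed to 751 and 1174, mostly from VIM at 709 and 1133, with 2 of 4 at 1 or more. Of 4 podocyte markers 1 passed (PODXL), with WT1 listed at 0 and sums of 4.41 and 5.87. Of 3 matched endothelial markers none passed, VWF and KDR were listed at 0, and the sums were 0 and 0.040. Of 3 leukocyte markers 1 passed (CD68), with PTPRC and CD3E listed at 0 and sums of 42.5 and 36.8. The part of these other programmes in the transporter levels was not tested.

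RNA of the 10 transporters spanned from not listed above 0 to about 10 FPKM (the plot of FPKM by library). Of 10 members, 4 had an FPKM of 1 or more in both libraries, ABCC4, ABCB1, SLC22A5 and SLC22A4, beside 58.8% of all 19645 protein-coding genes. Another 4 members, SLC22A2, SLC22A6, SLC22A8 and SLC47A1, were listed at 0 in both libraries, beside 19.6% of protein-coding genes. The median FPKM of the members was 0.644, and that of all protein-coding genes was 3.32. On the log10(FPKM + 1) scale the medians were 0.20 and 0.63. The highest levels were those of 2 efflux pumps, and the 4 members at 0 comprised 3 uptake carriers and the exchanger SLC47A1.

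**Figure D1:**
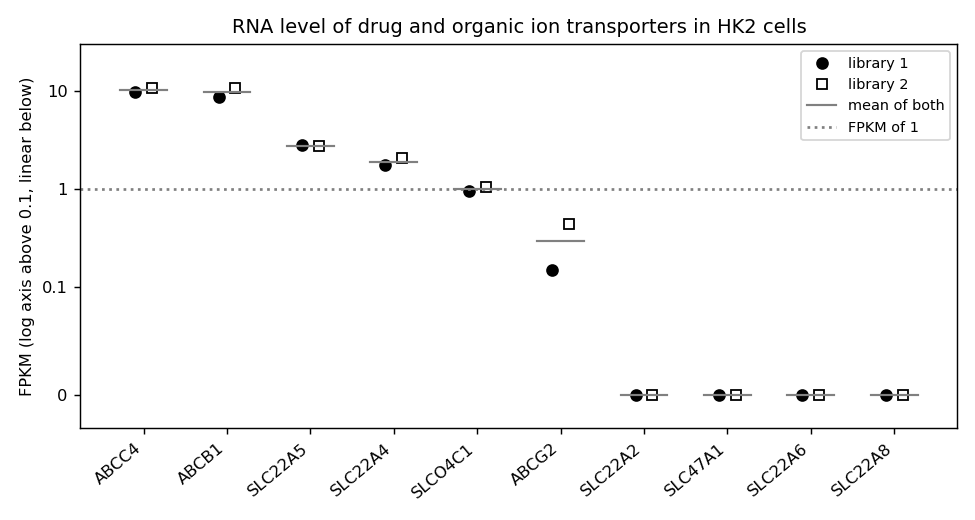
FPKM of each transporter in library 1 (filled circles) and library 2 (open squares), with their mean (grey line), on a log axis above 0.1 and a linear one below. ABCC4 and ABCB1 lie near 10, SLC22A5, SLC22A4 and SLCO4C1 between 0.946 and 2.79, ABCG2 lower, and 4 members are at 0 in both libraries.

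In the order of mean FPKM, ABCC4 and ABCB1 came first, and their libraries overlapped, so that these neighbours did not differ beyond their spread. SLC22A5, SLC22A4, SLCO4C1 and ABCG2 followed, each with both libraries below both of the member before it. An FPKM of 1 corresponded to a mean coverage of 5.67 reads per base in library 1 and 5.52 in library 2, so that the members near 1 rested on shallow coverage. Fragment counts were not given in the files used here, and no interval for counting error could be set on a level.

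The promoters fell into separate groups by their marks. Each annotated transcription start site (TSS) was given a window of 1 kb on either side, and the main TSS was that of the reference transcript (MANE Select). H3K4me3 had a peak in such a window in both replicates at 6 of 10 members, SLC22A4, SLC22A5, SLCO4C1, ABCB1, ABCC4 and ABCG2, beside 70.3% of protein-coding genes. For H3K27ac the count was 3 of 10, SLC22A4, SLC22A5 and ABCC4, beside 55.0% of protein-coding genes. For H3K27me3 it was 4 of 10, SLC22A6, SLC22A8, SLC47A1 and ABCG2, beside 11.4%. SLC22A2 was bare of all 3 marks in its TSS windows in either replicate. No member with H3K27me3 in this window reached an FPKM of 1, and no member without H3K4me3 there in both replicates was listed above 0. Over all protein-coding genes the split was not so clean. An FPKM of 1 was reached by 0.705% of 851 genes with H3K27me3 alone, 14.7% of 1126 with H3K4me3 and H3K27me3, and 65.0% of 254 with all 3 marks. Genes at 0 in both libraries made up 61.6% of 4680 with no mark, 67.8% of those with H3K27me3 alone and 8.91% of 303 with H3K27ac alone. The H3K27ac count rested on replicate 2, and with replicate 1 alone it was 5 of 10, with ABCB1 and SLCO4C1 added, and the count of active promoters described next was then also 5.

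**Figure D2:**
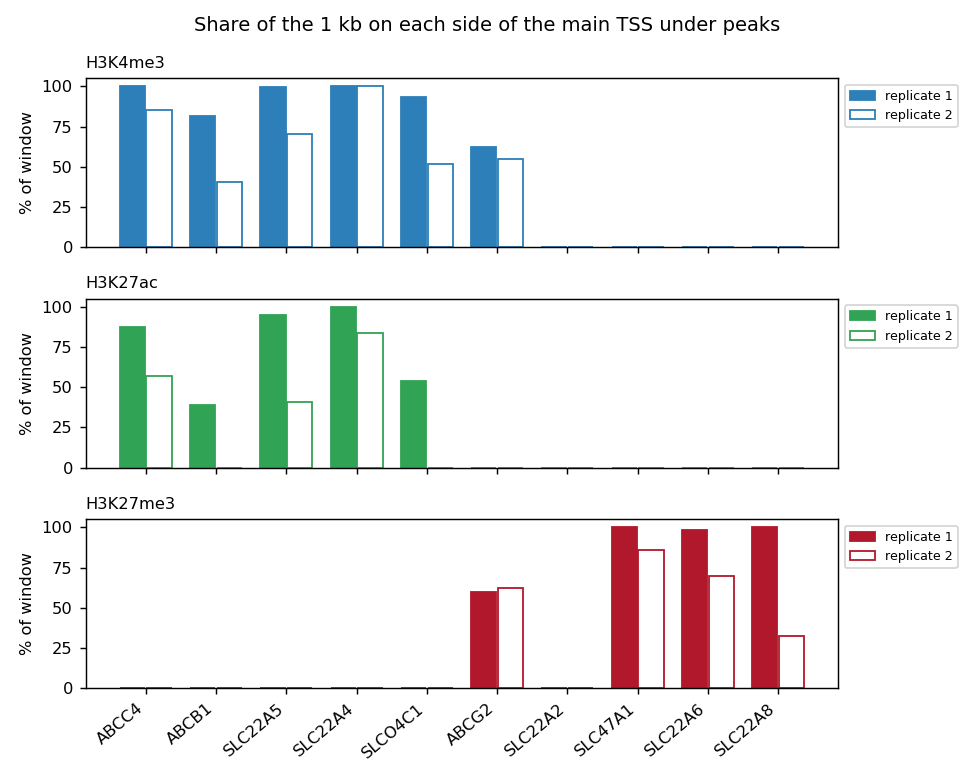
Share (%) of the 1 kb on each side of the main TSS that lay under peaks of H3K4me3, H3K27ac and H3K27me3, in replicate 1 (filled bars) and replicate 2 (open bars) for each transporter. The 5 members with the highest FPKM show H3K4me3 and no H3K27me3, ABCG2 shows both, SLC47A1, SLC22A6 and SLC22A8 show H3K27me3 alone, and SLC22A2 shows no bar.

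The marks were also combined in bins of 200 bp, where a mark counted if the peaks of both replicates each covered at least 50% of the bin. An active promoter bin, which held H3K4me3 together with H3K27ac and lacked H3K27me3, lay within 1 kb of a TSS of SLC22A4, SLC22A5 and ABCC4, 3 of 10 members beside 52.0% of protein-coding genes. A poised promoter, with H3K4me3 alone, was the class of SLCO4C1 and ABCB1, 2 of 10 beside 12.7%. A bivalent promoter, with H3K4me3 and H3K27me3, was the class of ABCG2, 1 of 10 beside 5.04%. The other 4 members had none of these states. Over all protein-coding genes, the median FPKM was 11.7 for 10215 active, 2.62 for 2503 poised and 0.09995 for 991 bivalent promoters, and 0 for the 5936 genes with no promoter state.

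**Figure D3:**
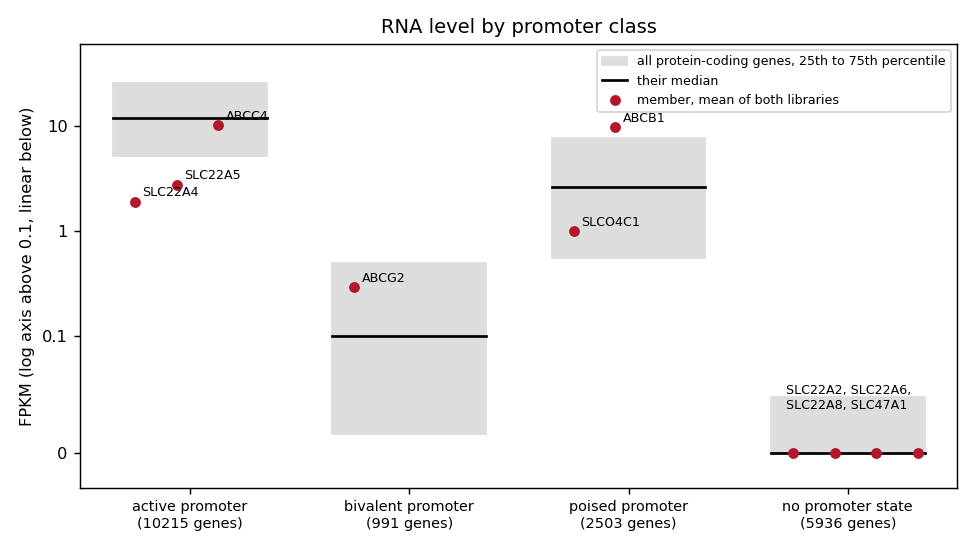
Mean FPKM of the members (red points) in each promoter class beside all protein-coding genes of that class (grey box, 25th to 75th percentile, and black line, median), on a log axis above 0.1 and a linear one below. ABCB1 lies above the box of poised promoters, and SLC22A4 and SLC22A5 lie below the box of active promoters. With replicate 1 alone, ABCB1 and SLCO4C1 would be in the active class.

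Within these classes the members did not all sit near the middle. ABCB1 stood at percentile 80.1 of the poised class, while SLCO4C1 stood at 33.0. The poised class of both genes rested on replicate 2, and with replicate 1 alone both had active promoters. Of the active class, ABCC4 was at percentile 44.9, SLC22A5 at 14.2 and SLC22A4 at 10.4. ABCG2 was at percentile 66.1 of the bivalent class.

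Among the uptake carriers of organic cations and carnitine, SLC22A5 and SLC22A4 were listed above 0 and SLC22A2 was not. SLC22A5 (OCTN2, ENSG00000197375, chr5:131705402-131731305, GRCh37, plus strand) takes up carnitine, which cells need to burn fatty acids. Its FPKM was 2.79 and 2.71, or 2.75 ± 0.059 (SD, n = 2 libraries). The libraries thus lay close together, at percentile 47.8 of protein-coding genes. Only a part of this level came from the reference transcript ENST00000245407, at 1.13 and 0.96 FPKM. A second coding transcript, ENST00000435065, was at 0.601 and 0.658, and the retained-intron transcripts ENST00000461013 and ENST00000475308 were at 0.478 and 0.515 and at 0.517 and 0.165. In ENST00000245407 the last exon, of 1430 bp, had a coverage of 0.458 and 0.391 beside 18.8 and 13.9 for the first. The window around the main TSS was covered by H3K4me3 over 99.7% and 70.2% of its length in replicates 1 and 2, and by H3K27ac over 95.2% and 40.6%. Enhancer regions are here runs of bins where both replicates had H3K27ac but did not both have H3K4me3, so that H3K4me3 of a single replicate may lie in them. Inside SLC22A5, 2 such regions began 17.2 and 20.2 kb downstream of the TSS, with lengths of 2800 and 400 bp, and the first held an H3K4me3 peak of 315 bp in replicate 1. They also lay within 1 kb of start sites of shorter SLC22A5 transcripts. No H3K27me3 peak lay in the gene.

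SLC22A4 (OCTN1, ENSG00000197208, chr5:131630087-131679883, plus strand), which carries organic cations and the antioxidant ergothioneine, lies 25519 bp before SLC22A5 on the same strand. Its FPKM was 1.74 and 2.04 (1.89 ± 0.211, SD, n = 2), of which ENST00000200652 made up 83.5% and 84.5%. All 10 exons of this transcript were covered in both libraries, from 2.21 to 17.4 reads per base in library 1 and from 7.19 to 12.7 in library 2. H3K4me3 covered all of the window around the TSS in both replicates, and H3K27ac covered 100% and 84.1%. This window is shared, since P4HA2, a collagen prolyl hydroxylase on the opposite strand, has a start site within 1 kb of the TSS and overlaps SLC22A4. That start is an alternative one, as the main TSS of P4HA2 lies 66.5 kb away. P4HA2 as a whole was at 47.0 and 48.6 FPKM, and the part from the alternative start was not determined. The long non-coding MIR3936HG, at 1.17 and 1.82 FPKM, overlaps SLC22A4 and SLC22A5 on the opposite strand and starts 0.206 kb from the SLC22A5 TSS. The strand setting of the RNA-seq is not given in the sources used here, so reads of these partners could not be told apart where exons overlap, and a mark in a shared window belongs to neither gene alone. The promoter of SLC22A4 is shown because it overlaps active promoter bins and is dense in GC boxes. The 200 bases before its TSS (chr5:131629887-131630086, GRCh37, plus strand) read as follows, 5′ to 3′, with capitals for the matches to GGGCGG (the GC box) and GCGTG (the core bound by the aryl hydrocarbon receptor), searched on both strands.
SLC22A4: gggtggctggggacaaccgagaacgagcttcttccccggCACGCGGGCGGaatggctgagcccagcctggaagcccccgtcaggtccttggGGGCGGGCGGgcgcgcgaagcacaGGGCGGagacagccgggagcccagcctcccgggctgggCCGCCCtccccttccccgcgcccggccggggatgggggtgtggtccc
GGGCGG was matched at 5 places here, 2 of which overlap. In the same 200-base window, GGGCGG was present at 56.6% and GCGTG at 35.4% of 19643 protein-coding promoters, and a match to such letters describes the sequence and not a bound site.

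SLC22A2 (OCT2, ENSG00000112499, chr6:160592093-160698670, minus strand), the main organic cation and metformin uptake carrier of the human proximal tubule, had an FPKM listed at 0 in each library. None of its 6 annotated TSSs had a peak within 1 kb, yet the gene body was not bare. H3K27ac replicate 1 had 6 peaks over the gene, covering 11.9% of it, and replicate 2 had 2, covering 1.39%. The peaks shared by both replicates gave 2 enhancer regions of 800 and 600 bp, 4.05 to 4.85 kb and 10.3 to 10.9 kb downstream of the TSS (chr6:160675001-160675800 and chr6:160669001-160669600). H3K27me3 had 1 peak in the gene in replicate 1, 69.2 to 70.0 kb downstream, and none in replicate 2. Of the 3849 protein-coding genes listed at 0 in both libraries, 301 (7.82%) had H3K27ac over the gene body in both replicates. SLC22A2 was among the 110 (2.86%) that had this with no H3K4me3 or H3K27me3 peak near a TSS in either replicate. Genes with H3K27ac near a TSS were not left out of these 110, whereas SLC22A2 had none there. Of the other organic cation carriers of the locus, SLC22A3 (OCT3), 70740 bp away on the opposite strand, was at 0.652 and 0.580 FPKM with a bivalent promoter.

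The organic anion uptake carriers SLC22A6 (OAT1, ENSG00000197901, chr11:62703857-62752439) and SLC22A8 (OAT3, ENSG00000149452, chr11:62756626-62783313) bring drugs such as diuretics and antivirals from blood into the tubule cell. They lie side by side on the minus strand of chromosome 11, with 4187 bp between them. Both were listed at 0 in both libraries, in all 6 and all 10 of their transcripts. Neither gene had an H3K4me3 or H3K27ac peak within 1 kb of a TSS or over its body in any replicate. H3K27me3 was present instead. Around the SLC22A6 TSS it covered 98.6% of the window in replicate 1 and 69.9% in replicate 2, where 2 peaks flanked the TSS itself, 1 ending at -0.236 kb and the other starting at 0.368 kb. Around the SLC22A8 TSS it covered 100% and 32.6%. Over the gene bodies H3K27me3 covered 30.2% and 5.33% of SLC22A6 and 33.4% and 5.56% of SLC22A8, at percentile 93.3 of protein-coding genes or above for both genes in each replicate. Most protein-coding genes had no H3K27me3 over the body, 79.6% of them in replicate 1 and 82.0% in replicate 2. The replicates differed in the width of their peaks over all peaks of the mark, with medians of 1181 and 535 bp, and replicate 2 also gave the smaller cover here. Of the 3849 protein-coding genes listed at 0, 772 (20.1%) had H3K27me3 near a TSS in both replicates.

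The SLC22A6 promoter is shown because its CpG ratio, given next, was the lowest of the list. The 200 bases before its TSS (chr11:62752440-62752639, GRCh37, minus strand, printed 5′ to 3′ along the gene) have capitals for matches on either strand to GTTAAT and to the TATA box letters (TATAAA).
SLC22A6: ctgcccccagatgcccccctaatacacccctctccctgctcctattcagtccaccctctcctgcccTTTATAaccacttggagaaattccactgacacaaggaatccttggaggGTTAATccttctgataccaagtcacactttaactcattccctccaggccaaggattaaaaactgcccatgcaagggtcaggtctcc
GTTAAT lay 86 to 81 bases before the TSS and was present at 3.26% of all protein-coding promoters in this window. TATAAA was matched only on the reverse strand of SLC22A6, and at 7.76% of promoters. The promoters of SLC22A6 and SLC22A8 were poor in CpG. Over the 1000 bp around the TSS, the ratio of observed to expected CpG was 0.172 for SLC22A6 and 0.238 for SLC22A8, at percentiles 7.74 and 14.3 of promoters, whose median was 0.726. The other 2 members without H3K4me3 at the TSS, SLC22A2 at 0.531 and SLC47A1 at 0.818, were not alike in this. The 6 members with H3K4me3 ranged from 0.616 for SLCO4C1 to 0.914 for ABCC4.

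SLCO4C1 (OATP4C1, ENSG00000173930, chr5:101569690-101631988, minus strand), an organic anion carrier of the blood-facing membrane that takes up digoxin and thyroid hormone, was the only organic anion uptake carrier of the list above 0. Its single annotated transcript had an FPKM of 0.946 and 1.05 (0.998 ± 0.074, SD, n = 2), so that the libraries fell on either side of 1. Its 13 exons were all covered in both libraries, with medians of 5.13 and 5.77 reads per base. H3K4me3 covered 93.6% and 51.6% of the window around its TSS. H3K27ac was seen in replicate 1, over 53.9% of the window, and not in replicate 2. No H3K27me3 peak lay over the gene in either replicate. Its promoter (chr5:101631989-101632188, minus strand, printed along the gene) is shown because its CpG ratio was the lowest among the members with H3K4me3 at the TSS, with capitals for the match to TGACNNNGC, the antioxidant response element core, on the reverse strand.
SLCO4C1: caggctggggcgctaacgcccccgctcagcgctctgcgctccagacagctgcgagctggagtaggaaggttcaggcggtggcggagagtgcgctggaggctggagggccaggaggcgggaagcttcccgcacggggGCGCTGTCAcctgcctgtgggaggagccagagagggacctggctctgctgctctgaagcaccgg
TGACNNNGC was present at 9.60% of promoters, and in this list at SLCO4C1 and ABCC4.

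On the efflux side, SLC47A1 (MATE1, ENSG00000142494, chr17:19398698-19482347, plus strand), the proton exchanger that passes organic cations such as metformin into urine, was listed at 0 in both libraries. H3K27me3 covered 100% and 85.7% of the window around its main TSS, in peaks that ran from -3.97 to 1.99 kb of it in replicate 1 and from -0.714 to 1.29 kb in replicate 2, negative values being upstream. H3K4me3 and H3K27ac had no peak in that window. Another part of the annotated gene carried other marks, since an H3K4me3 region of 2000 bp in both replicates lay between -26.97 and -24.97 kb of the main TSS (chr17:19410201-19412200), with no annotated TSS of any gene within 1 kb. H3K27ac covered it in replicate 1 and not in replicate 2. Peaks of H3K4me3 near start sites of alternative SLC47A1 transcripts occurred in replicate 2 only. SLC47A2, the related MATE2 exchanger 99254 bp away on the opposite strand, was at 0.109 and 0.041 FPKM.

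ABCC4 (MRP4, ENSG00000125257, chr13:95672089-95953729, minus strand), a pump for organic anions, cyclic nucleotides and nucleotide analogues on the urine-facing membrane, had the highest mean FPKM of the list, from 9.65 and 10.6 (10.1 ± 0.678, SD, n = 2), at percentile 68.5 of protein-coding genes. The libraries differed by 0.14 on the log2 scale, close to the median difference of 0.13 among protein-coding genes of 5 to 20 FPKM. ENST00000376887 made up 89.0% and 87.1% of the level. All 31 of its exons were covered in both libraries, from 33.7 to 81.3 reads per base in library 1 and from 33.2 to 69.6 in library 2. Around the TSS, H3K4me3 covered 100% and 85.5% of the window and H3K27ac 87.3% and 57.0%. ABCC4 also held the most enhancer regions of the list, and it was the longest member, at 281.6 kb. Its 11 regions in the gene made up 10800 bp in all. They lay from 1.11 to 46.3 kb downstream of the TSS and again at 199.5 to 202.1 kb, the longest being 2400 bp at 41.3 to 43.7 kb (chr13:95910001-95912400). In replicate 1, H3K4me3 peaks lay in or over the regions that begin at 1.105, 1.705, 32.3 and 41.3 kb, the first of which also lies within 1 kb of an ABCC4 TSS. The regions that begin from 1.105 to 3.705 kb all lay under a single H3K27ac peak of replicate 1, from -0.746 to 4.95 kb. A further H3K27ac peak at 108.2 to 109.6 kb was called in replicate 1 only, and no H3K27me3 peak lay in the gene. Its promoter is shown as the one richest in CpG, with a GC content of 74.3% over 1000 bp, and it reads as follows from 200 to 25 bases before the TSS (chr13:95953730-95953905, minus strand, printed along the gene), with capitals for GCGTG and TGACNNNGC on either strand.
ABCC4: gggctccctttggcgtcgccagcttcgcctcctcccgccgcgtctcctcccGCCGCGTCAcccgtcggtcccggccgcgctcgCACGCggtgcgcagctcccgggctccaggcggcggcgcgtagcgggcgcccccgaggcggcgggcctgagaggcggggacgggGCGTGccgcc

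ABCB1 (MDR1 or P-glycoprotein, ENSG00000085563, chr7:87132333-87342639, minus strand), the broad pump for lipophilic drugs such as cyclosporin and digoxin, was at 8.58 and 10.7 FPKM (9.63 ± 1.49, SD, n = 2). The libraries differed less in the coding transcript than in short ones. The coding transcript ENST00000622132 was at 8.16 and 9.13 FPKM, whereas the retained-intron transcript ENST00000491360, of 539 bp, was at 0.209 and 1.04. In aligned bases over the gene, scaled to each library, library 2 was 1.13 times library 1, beside 1.25 times in summed FPKM. The medians over all 28 exons were 57.6 and 63.9 reads per base, while the first exon had 8.92 and 11.6 and the last had 10.3 and 12.6. The lowest inner exon in both libraries was exon 15, at 33.5 and 29.1. H3K4me3 covered 81.9% and 40.6% of the window around the main TSS, at which H3K27ac was seen in replicate 1 (38.7%) and not in replicate 2. Of the 10 annotated TSSs of ABCB1, none but this one had a peak of any mark in its window. The H3K4me3 region at -28.6 to -26.6 kb, in both replicates, lies at the start of RUNDC3B, a gene on the opposite strand with 0.708 and 0.459 FPKM. Inside ABCB1, enhancer regions of 400 and 600 bp began 31 and 34.4 kb downstream of the TSS (chr7:87198801-87199200 and chr7:87195201-87195800), and no H3K27me3 peak was found. CCAAT, on the reverse strand, lay 79 to 75 bases before the TSS, and was present at 30.4% of promoters and at no other member. The neighbouring ABCB4, a phospholipid pump of the liver 22582 bp away on the same strand, was at 0.055 and 0.041 FPKM with a poised promoter.

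**Figure D4:**
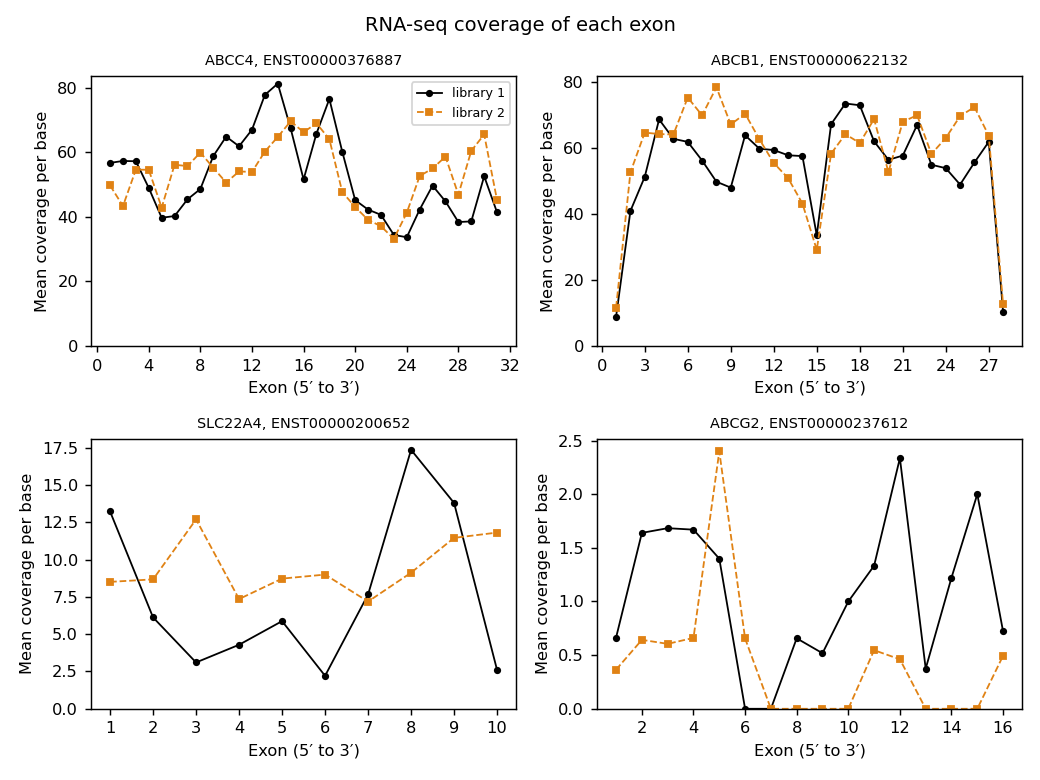
Mean coverage per base of each exon, numbered 5′ to 3′, in the leading transcript of ABCC4, ABCB1 and SLC22A4 and the reference transcript of ABCG2, in library 1 (black circles) and library 2 (orange squares). ABCC4 is covered throughout, ABCB1 drops at its first and last exons, and ABCG2 stays below 2.4 reads per base with several exons at 0.

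ABCG2 (BCRP, ENSG00000118777, chr4:89011302-89152780, minus strand), which pumps out urate and many drugs, combined a low level with marks of both kinds. Its FPKM was 0.148 in library 1 and 0.432 in library 2 (0.290 ± 0.200, SD, n = 2), a ratio of 2.91. The aligned bases did not show such a gap, with 3.77 kb in library 1 and 4.11 kb in library 2, or 1.12 times as many once scaled to the library. Library 1 gave all of the level to the reference transcript ENST00000237612, of 4479 bp. Library 2 gave 67.7% of it to ENST00000505480, of 451 bp, at 0.292 FPKM, and left 0.084 to ENST00000237612. In the latter, 14 of 16 exons were covered in library 1 and 9 of 16 in library 2. At the promoter, H3K4me3 covered 62.1% and 54.6% of the window and H3K27me3 60.1% and 62.2%, with no H3K27ac. The bins joined into a bivalent region from -0.209 to 0.390 kb of the TSS (chr4:89079401-89080000), with H3K27me3 alone on the gene side up to 1.59 kb and H3K4me3 alone on the other side out to -0.809 kb. Further upstream, H3K27me3 alone was present again from -1.61 to -1.41 kb. Away from the promoter, the gene had enhancer regions of 800 bp at 51.2 to 52.0 kb downstream (chr4:89027801-89028600) and at -20.2 to -19.4 kb of the main TSS (chr4:89099201-89100000), each in both replicates.

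**Figure D5:**
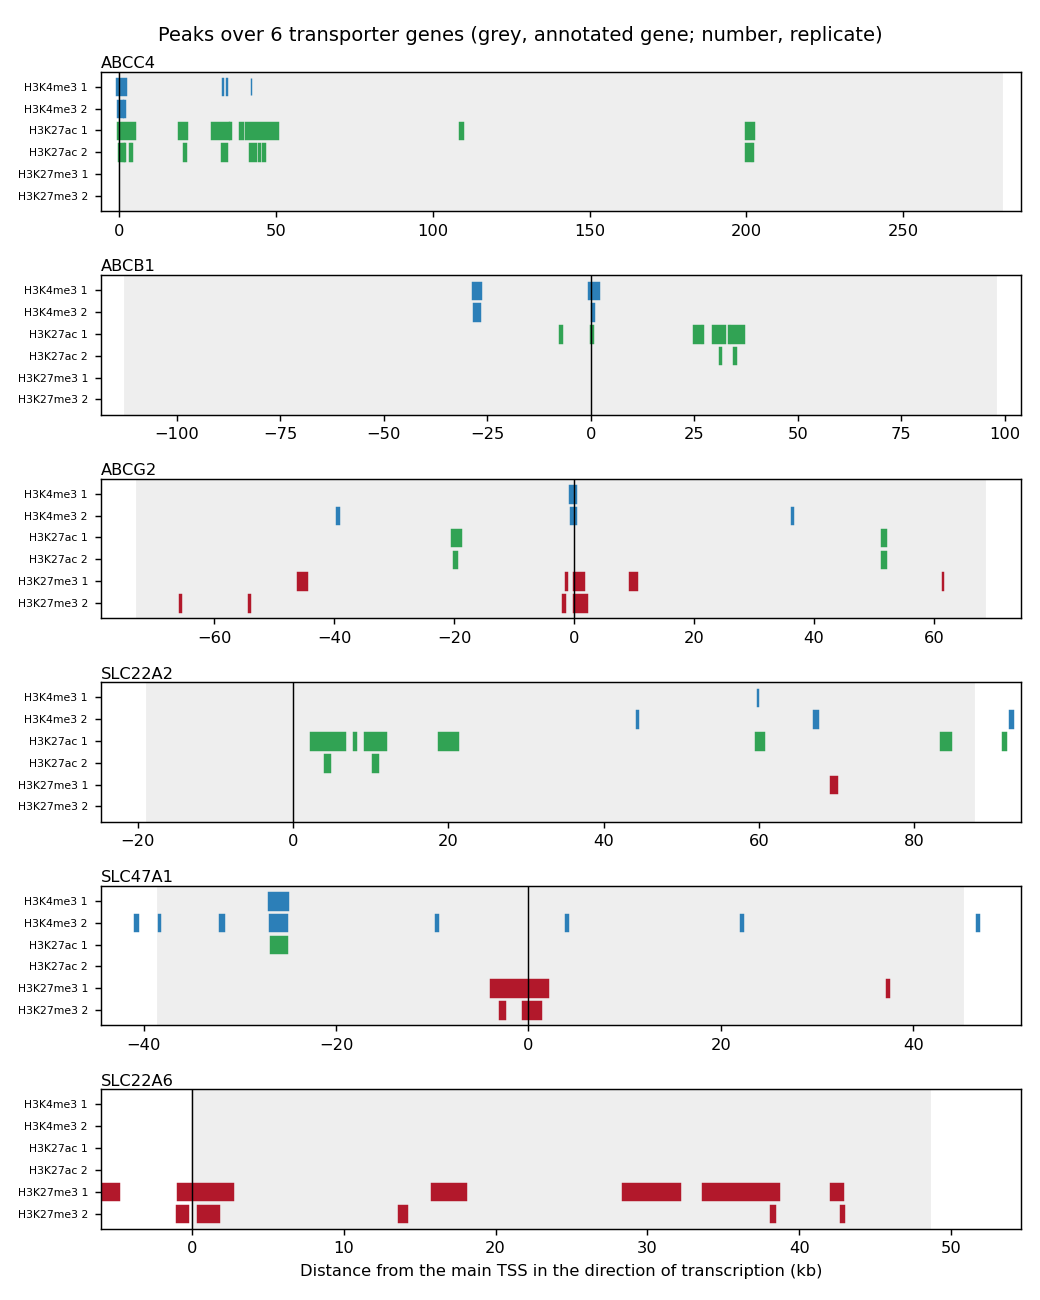
Peaks of H3K4me3 (blue), H3K27ac (green) and H3K27me3 (red) in replicates 1 and 2 over 6 transporter genes, by distance (kb) from the main TSS (black line) in the direction of transcription, with the annotated gene in grey; the shortest peaks are drawn slightly wider than they are. H3K27ac peaks recur across the first 50 kb of ABCC4 and lies inside ABCB1, ABCG2 and SLC22A2, while H3K27me3 lies at the TSS of ABCG2, SLC47A1 and SLC22A6.

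Over whole gene bodies, H3K27ac was present in both replicates at 6 of 10 members, SLC22A2, SLC22A4, SLC22A5, ABCB1, ABCC4 and ABCG2, beside 59.4% of protein-coding genes. H3K27me3 was present at 4 of 10, the same genes as at the TSS, beside 16.1%. Long genes meet more peaks, and the members had a median length of 73.0 kb beside 27.6 kb for all protein-coding genes. As a share of the gene, H3K27ac covered 27.9% and 14.3% of SLC22A5, 10.8% and 4.15% of ABCC4, and 4.82% and 0.457% of ABCB1, where the medians of protein-coding genes were 4.05% and 0.909%.

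The remaining members of these families were read in the same way. Of 12 other SLC22 genes, 3 reached an FPKM of 1 in both libraries, 4 were listed at 0, and 3 had H3K27me3 near a TSS in both replicates. Over all protein-coding genes these shares were 58.8%, 19.6% and 11.4%, and the first also stands beside the counts of the next 2 lists. The highest were SLC22A17 (6.05 and 6.48), SLC22A18 (4.59 and 4.07) and SLC22A15 (2.29 and 1.91), and of the 12 only SLC22A15 had an active promoter. Of 10 other SLCO and MATE genes, 3 reached 1, led by SLCO2A1, a prostaglandin carrier (18.8 and 20.2), SLCO4A1 (14.4 and 14.0) and SLCO3A1 (5.98 and 3.62). SLCO2A1 had its level with peaks of all 3 marks near its TSSs in both replicates. Of 9 other ABC efflux genes, 5 reached 1, and the highest were ABCC5 (20.2 and 20.8), ABCC1 (12.6 and 11.9) and ABCC3 (9.27 and 12.0), pumps of organic anions and conjugates that all had active promoters. The median FPKM was 0.129 for the other SLC22 genes, 0.056 for SLCO and MATE genes and 2.40 for ABC genes.

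Partners of the transporters were counted by the same FPKM of 1 in both libraries, which 58.8% of protein-coding genes reached. Of 6 scaffold and co-transport genes 4 passed it, among them PDZK1IP1 (46.9 and 44.1), SLC9A3R1 (26.99 and 24.1) and PDZK1 (17.4 and 17.9), of which the last 2 encode PDZ proteins that hold carriers at the membrane. Of 7 carnitine and xenobiotic genes 6 passed, with GSTP1, a glutathione transferase, at 621 and 593, CYP1B1 at 25.1 and 26.6 and UGT2B7, a glucuronyl transferase, at 20.4 and 26.8. Of 10 regulators 5 passed, among them RXRA (13.2 and 13.2) and NFE2L2 (6.13 and 7.22), the factor of the antioxidant response. HNF4A, a transcription factor of the mature tubule, and the drug receptor gene NR1I2, named here after their values were seen, were listed at 0 in both libraries and at 0.012 and 0 FPKM, respectively.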

How the data were processed

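HK2 cells were profiled by ChIP-seq and RNA-seq. For ChIP-seq, the authors used Bowtie2 on hg19 and then MACS2, replicate by replicate. Peaks came as start and end positions with no score, and the signal of an individual peak could not be judged. For whole libraries, the paper's supplement lists read pairs and the share of mapped reads inside peaks. That share was far higher in replicate 1 of H3K27ac than in the other replicate. It was also higher in replicate 1 of H3K4me3, and was low and nearly equal in both replicates of H3K27me3. Of the pair of lists per mark, the unnumbered one was taken as replicate 1. On the main chromosomes H3K4me3 had 28615 and 73505 peaks, H3K27ac 57687 and 38554, and H3K27me3 45858 and 32639. RNA-seq was mapped with HISAT2, and the authors deposited FPKM, TPM and coverage from StringTie 1.3.3 on GENCODE version 27. The study's methods name hg19, whereas these files carry GRCh38 coordinates, so genes were joined by Ensembl identifier and no RNA-seq coordinate was used. The transcripts held 4.54 and 4.42 Gb of aligned bases.

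FPKM was summed per gene. TSSs and gene limits came from GENCODE version 44 mapped to GRCh37, the build of hg19, and sequences from the GRCh37 genome. Of 20162 protein-coding genes, 19645 had RNA-seq records. Gene symbols of the lists were those of the RNA-seq files. The main ABCC4 transcript is missing from the TSS annotation and so from counts of coding transcripts. Percentiles give the share of protein-coding genes with a lower value. Python 3.11.15, numpy 2.4.6, pandas 2.3.3 and matplotlib 3.10.9 were used, and interval and motif counting was tested on simulated data. Named genes were all members, the 3 of highest mean FPKM in each pathway list, and list genes within 200 kb of a member. Members and lists were chosen with earlier results of these data known. Alternatives covered windows, peak width, replicates, units, pseudocounts and transcript sets. The input and the HiChIP samples were not used here. Some items that these rules take in are not reported here.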

Additional observations from a re-analysis of the deposited data

How the results depend on the processing

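No paired analysis was possible because the samples form 1 condition and no result comes from a test. The count of members with H3K27ac within 1 kb of a TSS was 3 and became 5 with either replicate. Leaving out 1 ChIP-seq replicate at a time gave 3 to 5, with ABCB1 and SLCO4C1 added without replicate 2. In the paper's supplement, replicate 2 of H3K27ac had by far the smaller share of reads inside peaks. Whether this lowered the count was not tested. The count of active promoters changed in the same way, at 5 with either replicate and 3 to 5 with a replicate left out. The median log10(FPKM + 1) of the members, 0.20, was -0.20 with a pseudocount of 0.1, 0.41 with TPM and 0.52 over members with a mean FPKM of at least 0.1, since the units and genes differ. Under the other 46 settings these counts and this median stayed close, within 1.5 times for counts and within 1 SD of the libraries for the median. With 1 library left out the median could not leave that range, since the main value lay midway between the library medians, 0.17 and 0.23. Percentiles of the members above 0 depended on the genes they were ranked among, and ABCB1, at 67.6 among protein-coding genes, was at 88.3 among all annotated genes and at 54.0 among those whose mean FPKM reached 0.1, where ABCC4 was at 55.3 and SLC22A5 at 26.0. With 2 libraries and unscored peaks, depth limited what could be said of ABCG2 and SLCO4C1.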
